A study of Mus musculus with 8 samples.

Results

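The C/EBP transcription factors and the repressor GFI1 were followed as a group of 7 listed genes, Cebpa, Cebpb, Cebpd, Cebpe, Cebpg, Cebpz and Gfi1. Every probe set whose only gene symbol in the platform annotation was a listed gene was taken, which gave 9 probe sets of 5 genes, of 45037 probe sets and 18193 genes in all. Cebpb and Cebpd have 2 probe sets each, Cebpg has 3, and Cebpa and Gfi1 have 1 each. Cebpe and Cebpz had no such probe set and were not analysed here. The arrays compared L-GMPs, sorted by flow cytometry from the marrow of mice whose genotype is labelled HoxA9+Meis1 AML, with GMPs sorted in the same way from normal mouse marrow labelled Normal. AML stands for acute myeloid leukaemia and GMP, as commonly used, for granulocyte-macrophage progenitor. There were 4 Affymetrix arrays per group, with replicate letters A to D. The labels give neither the strain and age of the mice nor how the leukaemia was made, and they do not say whether each array had its own mouse. The p-values therefore measure the spread between these samples alone, and that spread may be technical.

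C/EBP proteins are basic leucine zipper factors that bind DNA as dimers with themselves, with each other or with relatives such as ATF4. In myeloid progenitors C/EBPα is needed to form GMPs and granulocytes, C/EBPβ serves emergency granulopoiesis and macrophages, C/EBPδ and C/EBPε act later in granulocyte maturation, and C/EBPγ lacks a strong activation domain and works mainly as a dimer partner. CEBPZ shares the name but is a CCAAT-binding protein without a leucine zipper. GFI1 is a zinc finger repressor that recruits the demethylase LSD1 (Kdm1a) with CoREST, favours granulocytes over monocytes and represses its own gene and that of its paralogue GFI1B.

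Values are log2 intensities after RMA, which removes background, brings the arrays to a common scale and gives each probe set a single value. The brightness of a probe set depends on its probes, so levels are compared between groups and not between genes. A probe set was called where limma's adjusted p, over all 45037 probe sets, was under 0.05, and each difference is the L-GMP mean less the GMP mean, in log2 units. In all, 4921 probe sets (10.9%) were called, 1754 (3.89%) higher and 3167 (7.03%) lower in L-GMPs. Array medians lay between 5.24 and 5.49 and upper quartiles between 7.39 and 7.46. Aligning the medians moved the median difference of all probe sets from 0.00022 to 0.14 and the share of calls that were higher from 35.6% to 65.9% (46.8% after quantile normalization). The first principal component (55.5% of the variance) split L-GMPs from GMPs, while L-GMP replicate B stood apart on the second (12.6%) and GMP replicate A on the third (9.71%). For Gapdh, the 3' control probe set exceeded the 5' control by 2.74 in GMP replicate D and by 1.24 to 1.76 on the other arrays. All 10 genes listed as defining GMPs, among them Kit, Cd34 and Mpo, were measured. On the GMP arrays Kit read 9.04 to 9.40, Cd34 9.45 to 9.96 and Mpo 13.58 to 13.67, with no detection calls to test presence.

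Of the 9 member probe sets, 1 was called, for Cebpb, and it was higher in L-GMPs. That is 11.1% of the members beside 10.9% of all probe sets called (3.89% higher, 7.03% lower), a share near the background. The median difference of the members was -0.092, beside 0.00022 for all probe sets. Cebpa and Gfi1, the members most closely tied to the granulocyte fate of the GMP, were not called. None of the 9 intervals for the difference reached a change of 1 on the log2 scale in either direction.

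**Figure D1:**
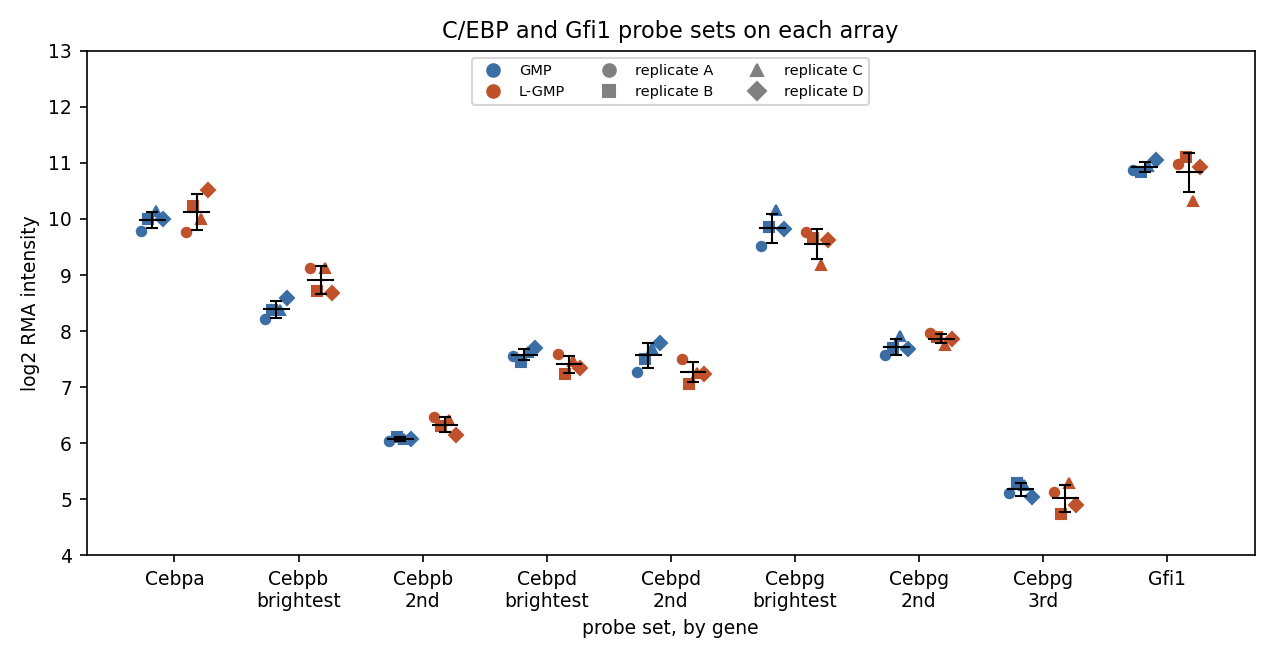
Log2 RMA intensity of each of the 9 member probe sets on the 4 GMP (blue) and 4 L-GMP (orange) arrays, with replicates by symbol, the group mean as a line and the SD as a bar. The groups are apart in both Cebpb probe sets and overlap in all 7 others.

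Cebpb, the macrophage and emergency granulopoiesis factor, was higher in L-GMPs in both of its probe sets. In the brighter one the GMP arrays A to D read 8.21, 8.38, 8.37 and 8.59, and the L-GMP arrays A to D read 9.12, 8.72, 9.13 and 8.67. Every L-GMP array lay above every GMP array, with L-GMP replicates A and C the highest. The group means were 8.39 ± 0.16 in GMPs and 8.91 ± 0.25 in L-GMPs (SD, n = 4). This probe set rose by 0.52 (SE 0.14, 1.44-fold, 95% interval 0.21 to 0.84, limma adjusted p = 0.0399). In the dimmer probe set the GMP arrays read 6.03, 6.12, 6.07 and 6.07 and the L-GMP arrays 6.46, 6.31, 6.41 and 6.15. Here too the groups did not overlap, but the difference of 0.26 (SE 0.10, limma adjusted p = 0.144) did not pass the threshold. It passed after aligning the array medians (0.40, limma adjusted p = 0.0365) and after quantile normalization (0.40, limma adjusted p = 0.0400). Groups that do not overlap were found in 2 of the 9 member probe sets, beside 17.1% of all probe sets, and both were higher in L-GMPs, beside 7.38%. In bulk arrays fewer or more cells of a type and less or more RNA per cell cannot be told apart.

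The Cebpb call stood close to the threshold. Leaving out any of L-GMP replicates A and C and GMP replicates A, B and C ended it (differences of 0.45 to 0.52, limma adjusted p 0.0780 to 0.107), as did leaving out together L-GMP replicate B and GMP replicates A and D, the arrays that stand apart (0.60, limma adjusted p = 0.0889). The difference of the brighter probe set stayed between 0.45 and 0.66 in the alternatives run on it. The mean of both probe sets gave 0.39 (limma adjusted p = 0.0365, adjusted over 18193 genes and not over all probe sets). Cebpb mRNA also gives rise to a long activating and a short inhibitory protein from different start codons, which an array cannot tell apart.

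To set the called member beside the uncalled lineage factors Cebpa and Gfi1, the 250 bases before the annotated start of each of the 3 genes are printed 5' to 3' on the strand of the gene, from RefSeq on GRCm38.p6. Of the 7 listed genes, 4 had an entry (Cebpa, Cebpb, Cebpg and Gfi1). The Cebpb window is on the plus strand at chr2:167688665-167688914, the Cebpa window on the plus strand at chr7:35119043-35119292, and the Gfi1 window, of the more upstream of its 2 annotated starts, on the minus strand at chr5:107725806-107726055. Capitals mark TGACG on either strand in Cebpb, TATAAA in Cebpa, and TTGCNNAA and AATC on either strand in Gfi1.
Cebpb: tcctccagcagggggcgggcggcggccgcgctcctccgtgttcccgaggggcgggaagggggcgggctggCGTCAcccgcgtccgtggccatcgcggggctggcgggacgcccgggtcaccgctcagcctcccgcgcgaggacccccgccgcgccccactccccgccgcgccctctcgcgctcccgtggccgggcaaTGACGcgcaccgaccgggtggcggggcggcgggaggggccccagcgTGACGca
Cebpa: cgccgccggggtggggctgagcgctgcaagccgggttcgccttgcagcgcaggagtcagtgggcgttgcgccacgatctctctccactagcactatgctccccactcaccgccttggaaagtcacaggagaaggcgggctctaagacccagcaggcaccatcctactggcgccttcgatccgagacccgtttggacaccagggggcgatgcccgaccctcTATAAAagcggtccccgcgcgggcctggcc
Gfi1: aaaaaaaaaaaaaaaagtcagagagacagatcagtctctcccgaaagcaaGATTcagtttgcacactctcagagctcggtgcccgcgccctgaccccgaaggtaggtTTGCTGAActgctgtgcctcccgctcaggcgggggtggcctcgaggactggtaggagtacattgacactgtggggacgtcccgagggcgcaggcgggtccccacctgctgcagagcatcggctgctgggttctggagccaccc

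The letters TGACG, the core that CREB and ATF proteins read, occurred 3 times in the Cebpb window, 176 to 180, 49 to 53 and 3 to 7 bases before the start, and not in the windows of the other 3 genes. Of 32851 RefSeq windows of this length, 17.8% hold TGACG on either strand at least once, and the share with 3 matches was not counted. TATAAA occurred once among these genes, 25 to 30 bases before the Cebpa start, and in 12.4% of all windows. TTGCNNAA, a loose form of the C/EBP site, was in the upstream Gfi1 window only, 136 to 143 bases before the start, and in 9.56% of all windows. AATC, the core read by GFI1, was in that Gfi1 window and in the Cebpg window, and in 69.0% of all windows. The 4 letter strings do not overlap each other where they occur here. These matches describe letters and do not show binding.

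Cebpa, the factor that GMPs require, read 9.791, 9.998, 10.14 and 9.997 on GMP arrays A to D and 9.76, 10.23, 9.99 and 10.52 on L-GMP arrays A to D. The L-GMP arrays spread on both sides of the GMP arrays, from the lowest value of all (replicate A) to the highest (replicate D). The means were 9.98 ± 0.14 and 10.12 ± 0.32 (SD, n = 4), a difference of 0.14 (SE 0.16, 95% interval -0.21 to 0.50, limma adjusted p = 0.634). The interval allows a rise of up to 1.41-fold and a fall of up to 1.16-fold.

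Gfi1, the repressor of the monocyte programme, read 10.87, 10.84, 10.94 and 11.05 on the GMP arrays and 10.98, 11.11, 10.33 and 10.92 on the L-GMP arrays. L-GMP replicate C lay below the other 7 arrays, which were between 10.84 and 11.11. The difference was -0.092 (SE 0.16, 95% interval -0.45 to 0.27, limma adjusted p = 0.776), and its sign turned without L-GMP replicate C (0.077) and after aligning the array medians (0.049). The interval allows a rise of up to 1.20-fold and a fall of up to 1.37-fold.

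Cebpd, which is induced during acute responses and granulocyte maturation, was lower in mean in L-GMPs in both probe sets without passing the threshold. The brighter read 7.56, 7.45, 7.62 and 7.69 on the GMP arrays and 7.58, 7.23, 7.46 and 7.34 on the L-GMP arrays, a difference of -0.18 (SE 0.11, limma adjusted p = 0.361). The other read 7.27, 7.50, 7.71 and 7.78 and 7.49, 7.06, 7.26 and 7.23, a difference of -0.30 (SE 0.14, limma adjusted p = 0.209). In both, L-GMP replicate A was the highest L-GMP array and lay within the range of the GMP arrays. The intervals ran from -0.42 to 0.070 and from -0.61 to 0.0089.

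The 3 probe sets of Cebpg, the dimer partner, did not share a sign. In the brightest the GMP arrays read 9.51, 9.85, 10.15 and 9.82 and the L-GMP arrays 9.76, 9.67, 9.17 and 9.62, a difference of -0.28 (SE 0.17, limma adjusted p = 0.329). In the next they read 7.57, 7.70, 7.91 and 7.67 and 7.96, 7.89, 7.76 and 7.85, a difference of 0.15 (SE 0.11, limma adjusted p = 0.430). The dimmest read 5.04 to 5.30 on the GMP arrays and 4.74 to 5.29 on the L-GMP arrays, a difference of -0.16 (SE 0.14, limma adjusted p = 0.509). The groups overlapped in all 3, and the intervals ran from -0.65 to 0.087, from -0.089 to 0.39 and from -0.46 to 0.14. Deviations from the group means went together over the 8 arrays in the brighter pair (Pearson r = 0.93) and not between either and the dimmest (r = -0.24 and 0.035). For the pair of Cebpb probe sets r was 0.80 and for that of Cebpd 0.76. These are descriptions over arrays that share their normalization. In RefSeq, Cebpg and Cebpa are neighbours on chromosome 7 with no protein-coding gene between them.

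**Figure D2:**
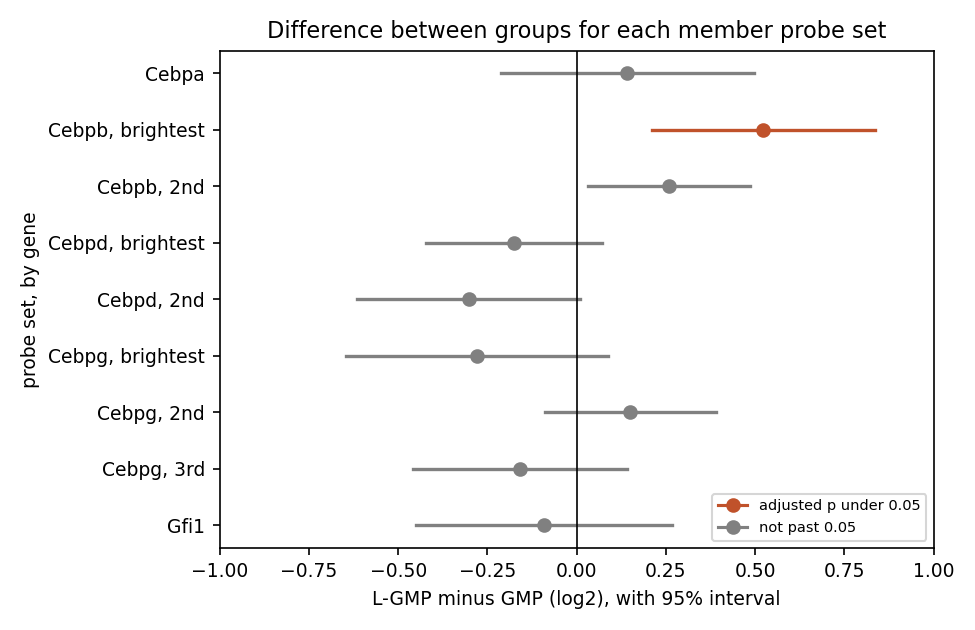
Difference between L-GMP and GMP means (log2) of each member probe set with its 95% interval from limma, coloured where the adjusted p is under 0.05. The brighter Cebpb probe set lies at 0.52 and the other 8 range from -0.30 to 0.26.

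Whether the members differed from each other in their response was tested on the difference between the brightest probe sets of a pair within each array, for all 10 pairs of the 5 genes. The largest shifts all had Cebpb on the higher side. Cebpb minus Cebpd read 0.65, 0.93, 0.75 and 0.90 on the GMP arrays and 1.54, 1.49, 1.66 and 1.33 on the L-GMP arrays. That pair shifted by 0.70 (SE 0.10, 95% interval 0.47 to 0.93), with no overlap between the groups. Cebpb minus Cebpg shifted by 0.80 (SE 0.25, 95% interval 0.20 to 1.40) and Cebpb minus Gfi1 by 0.61 (SE 0.27, 95% interval -0.046 to 1.28), again without overlap. Each of these 3 pairs had an exact permutation p of 0.0286 (2-sided), the smallest that 4 arrays against 4 can give. After Benjamini-Hochberg adjustment over the 10 pairs that p was 0.0952, so none of the 10 passed. At this floor a single pair, however clear its shift, could not pass over 10 pairs, so the adjusted test cannot decide here. Cebpb minus Cebpa shifted by 0.38 (95% interval -0.33 to 1.09, exact permutation p = 0.286, adjusted 0.429). L-GMP replicates A and C lay above all GMP arrays in that pair, replicate B lay within their range and replicate D lay below all of them. Among the 6 pairs without Cebpb the shifts were 0.085 to 0.42, with exact permutation p from 0.114 to 0.657. The size of a shift rests on the probe sets used. The dimmer probe sets differed by 0.26 in Cebpb, by -0.30 in Cebpd and by 0.15 and -0.16 in Cebpg. Pairs of these dimmer probe sets were not tested.

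**Figure D3:**
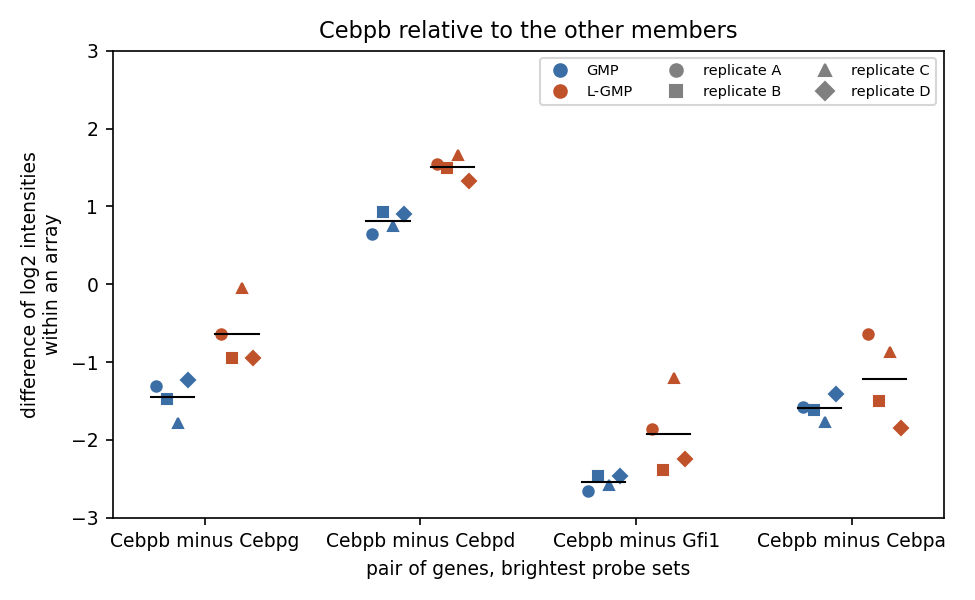
Log2 intensity of Cebpb minus that of each other member (brightest probe sets) within each of the 4 GMP (blue) and 4 L-GMP (orange) arrays, with group means as lines. The groups are apart against Cebpg, Cebpd and Gfi1 and overlap against Cebpa, where L-GMP values run from -1.84 to -0.64.

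After subtracting each group's mean, the genes whose deviations over the 8 arrays were most like those of each member, among 19184 probe sets brighter than the median, were the following. For Cebpb they were Neu1 and Exosc8 (Pearson r = 0.99 for each), and for Cebpa Ccser2 and Wnt2b (r = 0.97 for each). For Gfi1 they were Pde8a (r = 0.99) and Cpt2 (r = 0.98), for Cebpg Nol9 and Alkbh5 (r = 0.98 for each), and for Cebpd Limk2 (r = 0.98) and Cdk9 (r = 0.95). None of these 10 genes was called between the groups (limma adjusted p 0.0675 to 0.961). They were picked as the highest of that many probe sets over 8 arrays and carry no test.

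Reported C/EBP target genes of the granulocyte lineage went both ways. In these counts a gene is represented by its brightest probe set, of which 11.2% were called over all genes, 4.33% higher and 6.87% lower. Of 23 measured target genes, 2 rose, 5 fell and 16 did not pass, a called share of 30.4%, with a median difference of -0.15 beside 0.012 for all genes. Aligning the array medians gave 6 that rose and 4 that fell, and leaving out the 3 arrays that stand apart gave 3 and 2. Fcnb, a secreted ficolin of granulocytes, fell by 2.32 (SE 0.39, limma adjusted p = 0.00392), from 6.52 to 7.54 on the GMP arrays to 3.95 to 6.06 on the L-GMP arrays. Elane, neutrophil elastase, fell by 1.75 (SE 0.38, limma adjusted p = 0.0145), from 12.62 to 13.03 down to 9.73 to 11.97. Csf3r, the receptor for G-CSF, fell by 1.16 (SE 0.18, limma adjusted p = 0.00226). The protease gene Prtn3 fell by 0.84 (SE 0.18) and Mpo, the myeloperoxidase gene, by 0.39 (SE 0.10). In all 5 the groups did not overlap. The Mpo call was lost after aligning the array medians (-0.25, limma adjusted p = 0.120) and without each of L-GMP replicates A, C and D and GMP replicates B, C and D (limma adjusted p 0.0511 to 0.0726). The Prtn3 call was lost without GMP replicate D (-0.79, limma adjusted p = 0.0504).

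The 2 target genes that rose encode proteins that macrophages also make. The target list shares 1 gene with the monocyte and macrophage markers below, Csf1r, which was not called. Cybb, the large subunit of the phagocyte oxidase, rose by 1.35 (SE 0.29, 2.55-fold, limma adjusted p = 0.0144), from 7.90 to 8.56 on the GMP arrays to 8.70 to 10.23 on the L-GMP arrays, and 2 of its 3 probe sets were called. Lyz2, which encodes lysozyme, rose by 0.66 (SE 0.11, 1.58-fold, limma adjusted p = 0.00396), a gene chosen after seeing its values. Secondary granule genes such as Ltf, Camp and Ngp, which C/EBPε drives, were not called. Their values differed widely within the groups, with an SD of 1.19, 1.51 and 1.53 over the 4 GMP arrays. Without L-GMP replicate B and GMP replicates A and D together the calls of Fcnb, Elane, Prtn3, Mpo and Cybb were lost (limma adjusted p 0.0797 to 0.130), with differences of -2.00, -1.66, -0.80, -0.46 and 1.18.

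**Figure D4:**
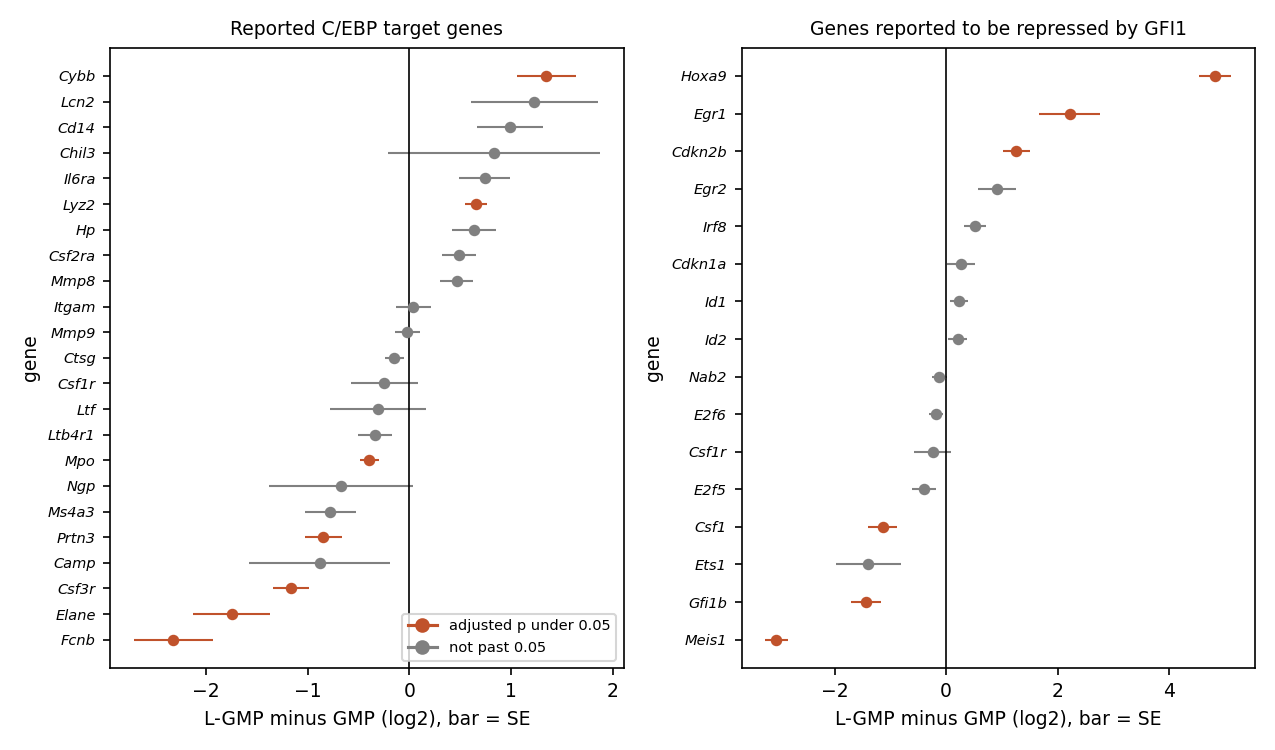
Difference between L-GMP and GMP (log2, brightest probe set, bar = SE from limma) of 23 reported C/EBP target genes (left) and 16 genes reported to be repressed by GFI1 (right), coloured where the adjusted p is under 0.05. The C/EBP targets run from Fcnb (-2.32) to Cybb (1.35) and the GFI1 targets from Meis1 (-3.05) to Hoxa9 (4.82). The genotype label names Meis1 and Hoxa9. A dimmer Hoxa9 probe set, not drawn, was called lower.

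Genes reported to be repressed by GFI1 also went both ways. Of 16 measured, 3 rose, 3 fell and 10 did not pass (37.5% called), with a median difference of 0.043. The called share includes Hoxa9 and Meis1, the genes of the genotype label, where genotype and GFI1 cannot be told apart. The rises were in Hoxa9 (4.82, SE 0.29), which the genotype label names, in Egr1, an early response factor (2.21, SE 0.55, limma adjusted p = 0.0278), and in Cdkn2b, a cell cycle inhibitor (1.26, SE 0.24, limma adjusted p = 0.00838), the last chosen after its values were seen. Hoxa9 has another probe set that was called lower, and the mean of the pair gave -0.92 (limma adjusted p = 0.00328). The other probe set therefore fell by more than the brighter one rose. With the mean of probe sets per gene, 2 GFI1 targets rose and 4 fell. Egr1 read 6.59 to 8.81 on the GMP arrays and 9.03 to 11.15 on the L-GMP arrays, and was not called when any of L-GMP replicates C and D and GMP replicates B and C was left out (limma adjusted p 0.0518 to 0.0847). The falls were in Meis1 (-3.05, SE 0.20), also named by the label, in Gfi1b, the paralogue of Gfi1 (-1.43, SE 0.27, limma adjusted p = 0.00715), and in Csf1, the macrophage growth factor gene, chosen after its values were seen (-1.14, SE 0.26, limma adjusted p = 0.0181). Of the 4 Csf1 probe sets 2 were called, both lower, and the mean of the 4 gave -0.50 (limma adjusted p = 0.0148). The Csf1 call was lost without GMP replicate B (-1.10, limma adjusted p = 0.0571). Irf8, a monocyte factor, had a difference of 0.52 (limma adjusted p = 0.136). L-GMP replicate B read 9.89 in Irf8 and the other L-GMP arrays 10.73 to 10.89, and without replicate B Irf8 was called (0.74, limma adjusted p = 0.00309). Id1 and Id2 had differences of 0.23 and 0.21 (0.391 and 0.489).

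Of 15 measured partners of GFI1, 0 rose and 1 fell (6.67% called, beside 11.2% of all genes). The count was 2 after quantile normalization, and 3 without GMP replicate A and with the mean of probe sets per gene, all lower. At an unadjusted p under 0.05, 0 were higher and 3 lower. The gene that fell was Gfi1b, from 5.47 to 6.71 on the GMP arrays to 4.24 to 5.05 on the L-GMP arrays. The call was lost without the 3 arrays that stand apart (-1.05, limma adjusted p = 0.0750). Kdm1a, the demethylase that GFI1 recruits, had a difference of -0.36 (SE 0.11, limma adjusted p = 0.0551), which passed after quantile normalization (-0.40, limma adjusted p = 0.0324) and without GMP replicate A (-0.40, limma adjusted p = 0.0423).

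Among 15 relatives and partners of C/EBP factors, 3 rose and 1 fell (26.7% called), with a median difference of 0.33. Aligning the array medians gave 7 that rose and 0 that fell, and quantile normalization 5 and 0. The 4 calls became 2 without L-GMP replicate C and without GMP replicates B or C in turn, and 6 without L-GMP replicate B. Jun, an AP-1 subunit that can pair with C/EBP proteins, rose by 1.28 (SE 0.23, 2.43-fold, limma adjusted p = 0.00632), from 10.68 to 11.37 on the GMP arrays to 11.75 to 12.86 on the L-GMP arrays. Nfil3, a leucine zipper repressor, rose by 1.22 (SE 0.21, 2.33-fold, limma adjusted p = 0.00487), and the PAR family factor Tef rose by 0.55 (SE 0.13). Hlf, a PAR factor of stem cells, fell by 0.75 (SE 0.21, limma adjusted p = 0.0420). The Hlf call was lost under both other scalings (-0.61 in each, limma adjusted p 0.0795 and 0.104) and when any array was left out other than L-GMP replicates B and D. Both Hlf probe sets were called lower, and their mean gave -1.41 (limma adjusted p = 0.00150). The Tef call was lost when any of GMP replicates B, C and D and L-GMP replicate C was left out (limma adjusted p 0.0584 to 0.0669) and in the mean of its 3 probe sets (0.31, limma adjusted p = 0.0581). Atf4, the heterodimer partner of C/EBPγ, had a difference of 0.48 (SE 0.16, limma adjusted p = 0.0872) and was called without L-GMP replicate B (0.61, limma adjusted p = 0.0214). Ddit3, the inhibitory relative known as CHOP, had one of 0.33 (limma adjusted p = 0.412). Trib1 and Trib2, which bring C/EBPα to the ubiquitin ligase COP1, had differences of 0.79 (limma adjusted p = 0.0558) and -0.31 (0.220). Trib1 was called after aligning the array medians (0.93, limma adjusted p = 0.0264), after quantile normalization (0.89, limma adjusted p = 0.0276) and without GMP replicate D (0.99, limma adjusted p = 0.0181). The mean of its 2 probe sets gave 0.44 and was not called (limma adjusted p = 0.146).

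Of 20 factors reported to be linked to Cebpa or Gfi1, 5 rose and 1 fell (30.0% called), with a median difference of 0.042. Which side of a link acts on the other was not tested. The 6 calls became 2 when GMP replicate B or C was left out, 3 when L-GMP replicate C or D was, and 9 when L-GMP replicate B was. They were 4 with the mean of probe sets per gene and without L-GMP replicate A. Besides Egr1 and Jun, Rxra and Ikzf1 rose by 0.41 each, chosen after seeing their values, and Rara, the retinoic acid receptor, rose by 0.62 (SE 0.11, limma adjusted p = 0.00537). Of the 3 Rxra probe sets 1 was called higher and 1 lower. The Rxra call was lost in the mean of its probe sets (0.032) and when any of L-GMP replicates C and D and GMP replicates B and C was left out. The Ikzf1 call was lost when any array but L-GMP replicate B was left out (limma adjusted p 0.0545 to 0.109). Both Ikzf1 probe sets were called higher, and their mean gave 0.45 (limma adjusted p = 0.00838). Sox4, an HMG-box factor of immature cells, fell by 0.59 (SE 0.15, limma adjusted p = 0.0317), a call lost in the mean of its probe sets (-0.38), after aligning the array medians (-0.45) and without L-GMP replicate A or D or GMP replicate B, C or D. Myb and Runx1, regulators that GMPs depend on, had differences of -0.20 and -0.29 and were not called, though 3 of the 6 Runx1 probe sets were, 2 higher and 1 lower.

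Some lists of markers of other cell types differed between the groups. Of 11 monocyte and macrophage markers 7 rose and 1, Cx3cr1, fell (by 0.75), and their summed linear intensity was 5173 to 6059 on the GMP arrays and 9752 to 14343 on the L-GMP arrays, the direction of Cebpb, Cybb and Lyz2. The 8 calls became 5, all higher, without L-GMP replicate A, without L-GMP replicate C and without the 3 arrays that stand apart. Cx3cr1 was no longer called after aligning the array medians or quantile normalization (limma adjusted p 0.0622 and 0.0702). Cd68 rose by 2.48 (SE 0.19), Mpeg1 by 1.93, Ctss by 1.69 and F13a1 by 1.57 (SE 0.10). Of 11 eosinophil, basophil and mast cell markers 9 fell and 0 rose (unadjusted p under 0.05 in 10 and 0), with sums of 4566 to 11127 and 675 to 1573. The differences of Prg2, Ms4a2, Epx and Prg3 were -5.20, -4.95, -4.77 and -3.93. Of 10 megakaryocyte and erythroid markers 4 fell, with sums of 572 to 2208 and 259 to 361, led by Pf4 (-5.10), with Vwf (-1.80), Car1 (-1.80) and Itga2b (-1.68). The Car1 call was lost when any array but GMP replicates A and B was left out (limma adjusted p 0.0564 to 0.0956), and its difference was -1.20 without GMP replicate A. Of 11 mature neutrophil markers 3 fell (S100a8 by 3.82, Cxcr2 by 1.37 and Padi4 by 1.12), and their sums of 978 to 4401 and 417 to 1677 overlapped. At an unadjusted p under 0.05, 4 of these markers were lower and 1 was higher. The S100a8 call was lost without the 3 arrays that stand apart (-3.20, limma adjusted p = 0.0801). No lymphocyte marker of 9 was called by limma (0 at an unadjusted p under 0.05 lower and 1 higher), the largest difference being in Vpreb1 (0.53, limma adjusted p = 0.588). The C/EBP target list shares 6 genes with the neutrophil markers and 6 with the GMP genes. Other lists overlap too, among them the targets and partners of GFI1, which share Gfi1b. The factors reported to be linked to Cebpa or Gfi1 share Jun with the C/EBP partners and Egr1 with the GFI1 targets. Counts of lists that share genes are not independent. Of the 10 GMP genes, 4 fell, Elane, Kit (by 0.96), Prtn3 and Mpo. No probe set had a value of 0. The part of these cells in the differences of Cebpb and the target genes was not tested.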

How the data were processed

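Each of the 8 arrays was hybridised with RNA of sorted marrow cells. Per the labels' protocols RNA was extracted with Trizol, and the deposited intensities come from RMA, per the submitters' processing notes, which name no version. The deposited intensity values are on a linear scale, read from the values, and log2 was taken. The labels name a sense-strand labelling assay for whole transcripts, and the part of each transcript that the target covers is unknown. Of 45101 probe sets, 64 controls were left out, and 34945 had 1 symbol, 932 several and 9160 none. Groups came from the titles. The 2 groups were compared with limma 3.58.1 (R 4.3.3; lmFit and eBayes on group alone, 2-sided, Benjamini-Hochberg over all 45037 probe sets), which was tested on simulated data. Pairs of members used an exact permutation test (scipy 1.17.1). Named were all members, up to 4 called genes of each list with the largest difference (or the largest where none was called) and the 2 nearest genes of each member, and every other gene given with a value was chosen after its values were seen. The members and lists were chosen with earlier results of these data known. Alternatives covered scaling, filters on dim probe sets, probe sets per gene, priors, array weights, a replicate block and each array left out. In the fits with filters or with 1 row per gene, p-values were adjusted over the rows kept. Leaving out 3 arrays that stand apart was added after seeing the data. The number of arrays limits the precision. Deviations of same-lettered arrays correlated by -0.07 to 0.10, so the letters were not taken as pairs.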

Additional observations from a re-analysis of the deposited data

Results flagged for a closer look

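Of 124 groups of 4 arrays checked, over the member probe sets and the list genes given with values, 8 held an array far from the other 3, where chance flags about 1 in 20 groups. None was a member probe set. GMP replicate A was low in Cd68 (6.70, others 6.87 to 6.89), Mpeg1 (8.78, others 9.21 to 9.26) and Vpreb1 (5.77, others 6.88 to 7.01). GMP replicate C was low in Cxcr2 (6.39, others 6.67 to 6.70), L-GMP replicate C was high in Prg2 (6.37, others 4.44 to 4.72) and L-GMP replicate B was high in Vwf (4.78, others 4.29 to 4.32) and low in Csf1 (5.52, others 6.40 to 6.55) and Irf8 (9.89, others 10.73 to 10.89).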

How the results depend on the processing

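The count of 1 called member probe set became 2 after aligning the array medians and after quantile normalization, where the dimmer Cebpb probe set joined, and 0 without moderation, with the replicate block and without L-GMP B, GMP A and GMP D together. It was 0 to 1 with single arrays left out. With the replicate block Cebpb had limma adjusted p = 0.0906 and 4077 probe sets were called in all. The block also ended the calls of Mpo (limma adjusted p = 0.0660), Hlf (0.0750), Rxra (0.0661), Ikzf1 (0.101) and Cx3cr1 (0.0515) and gave one to Trib1 (0.0243), and it changed no other call of a member or of a list gene given with its value. The Cebpb call (brighter probe set, or the mean of both) held in 11 of 19 alternatives, and no probe set of the other 4 member genes was called in any of them. The sign of Gfi1 turned after aligning the medians (0.049), and its difference ran from -0.18 to 0.077 with single arrays left out, above 0 without L-GMP replicate C. The 7 called C/EBP targets became 3 without moderation and 11 with array weights (6 to 9 with single arrays left out), and the 6 called GFI1 targets became 2 without moderation (4 to 8). Probe sets called in all were 2193 with the brightest and 2569 with the mean probe set per gene, 2321 without moderation, 3239 without the 3 arrays, and 2972 to 5334 with single arrays left out, with 2972 without GMP replicate B and 3244 without GMP replicate D. The Hoxa9 mean of probe sets was -0.92, and Vpreb1 ran from -0.012 (without L-GMP replicate D) to 0.90 with single arrays left out. Also uncalled, with single arrays left out, Cd34 ran from -0.38 to 0.023 (without L-GMP replicate B) and Ltf from -0.64 to 0.25 (without GMP replicate B). Over single arrays left out, Cebpd minus Cebpg ran from -0.043 to 0.205 and Gfi1 minus Cebpd from -0.064 to 0.27. The causes of these changes were not tested. With 4 arrays per group, 95% intervals of the members spanned changes up to 0.84 on the log2 scale.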
